A study of Mus musculus with 12 samples.

Results

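The genes described here are 36 carriers, receptors and enzymes by which the proximal tubule of the kidney recovers and converts filtered solutes, with Hnf4a, a transcription factor gene of that segment. They were chosen by name from what the proximal tubule is known to express and found as rows of the deposited count table, 36 of 46403 genes, and 35 of them passed the filter on low counts. Polyadenylated RNA of the entire right kidney of untreated mice was sequenced in 12 libraries of 3 genotypes, in a study that asked how the transcription factor Grainyhead-like 2 (Grhl2) bears on renal cyst growth. Wildtype (n = 5), as the labels define it, stands for R26StopFLMYC; Grhl2 flox/flox mice, in which both Grhl2 alleles are floxed and a Rosa26 MYC transgene is silent until Cre recombinase takes out its stop cassette. The Myc group (n = 3) is labelled as Myc overexpression, and its library names hold the letters HET, but the sources used here give neither its cross nor its Grhl2 alleles. The Grhl2KO_Myc group (n = 4) is labelled as Grhl2 knockout with Myc overexpression and came from crossing HoxB7-Cre; Grhl2flox/+ mice with R26StopFLMYC; Grhl2flox/flox mice. HoxB7-Cre is known to act in ureteric bud cells and their descendants in the collecting duct, and not in the cells that become the proximal tubule. The sources used here give neither age nor sex, no kidneys with the knockout alone were analysed here, and nothing in the labels says whether each library is a mouse of its own, so the p-values measure the spread between samples.

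The proximal tubule is the first stretch of the nephron after the glomerulus. Its brush border takes back most of the filtered glucose, amino acids, phosphate, bicarbonate and protein, and its basolateral carriers draw organic anions and urate from blood for secretion. The same cells make glucose from lactate and glutamine, and burn fatty acids to pay for transport. Early stretches are known for high-capacity glucose, phosphate and bicarbonate uptake, and the late stretch for carriers of its own, several of which differ between male and female mice.

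Levels are given as CPM, a gene's counts relative to the library total after TMM scaling. Library totals lay between 52973520 and 108164810 counts, and the members took 0.192% to 0.639% of them. As a check of the labels, Grhl2 was at 29.2, 24.9, 25.6, 23.9 and 25.2 CPM in wildtype 1 to 5, at 28.5, 33 and 28.2 CPM in Myc 1 to 3 and at 18.5, 19, 24.3 and 22.3 CPM in Grhl2KO_Myc 1 to 4, and counts at the mouse Myc gene ran from 19.8 to 34.4 CPM in wildtype, 19.1 to 27.6 in Myc and 27 to 32.2 in Grhl2KO_Myc. Every Grhl2KO_Myc library lay below every Myc library for Grhl2 (-0.51, edgeR adjusted p = 0.044), but Grhl2KO_Myc 3 lay above wildtype 4, and the difference from wildtype did not pass (-0.29, adjusted p = 0.082). Myc counts were not higher in the Myc group (23.6 ± 4.24 CPM) than in wildtype (26.7 ± 6.06 CPM), and the sources used here do not say whether transgene reads are counted there. Genes that draw ribosomal RNA reads took 5.55% of the counts of Myc 1 and at most 0.581% elsewhere. In wildtype 5, Myc 3, Grhl2KO_Myc 1 and Grhl2KO_Myc 4 alone Y-linked Ddx3y was well expressed, from 62.8 to 81.2 CPM, while Xist was at 0.213 CPM in Grhl2KO_Myc 3, which also lacked Ddx3y. Wildtype 4, Grhl2KO_Myc 3 and Grhl2KO_Myc 4 stood apart through low levels of the members themselves, and the calls and the medians over the members and other proximal tubule lists are also given without them. In whole kidney RNA, fewer proximal tubule cells and less of a transcript per cell cannot be told apart.

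Levels of the members in wildtype kidneys differed widely. Per kilobase (kb) of exon, which allows genes to be compared, Slc34a1, the main sodium-phosphate cotransporter of the brush border, stood first at 283 ± 139 CPM per kb (mean ± SD, n = 5). Fbp1, fructose-bisphosphatase of gluconeogenesis, followed at 169.8 ± 68.8, Ttc36 at 130.01 ± 34.4, Gatm, the first enzyme of creatine synthesis, at 128 ± 67.4, and Miox, which opens the breakdown of inositol, at 101 ± 66.9 CPM per kb. Neighbours in this order differed by less than the larger of their SDs. At the other end stood Slc34a3, a further phosphate cotransporter, at 1.78 ± 1.11 CPM per kb, and Slc22a7, an organic anion carrier, at 0.424 ± 0.183 CPM per kb. Dpys, dihydropyrimidinase of pyrimidine breakdown, had 2 to 20 counts per library and did not pass the filter. Defining markers of the segment were present in every library, with the endocytic receptor gene Lrp2 never below 248 CPM. Exons of 10 members, Slc34a1, Cubn, Dab2, Slc5a2, Slc22a12, Slc27a2, Keg1, Agxt2, Acmsd and Ttc36, overlap exons of another gene, and the library kit does not mark strand, so reads of such pairs may be mixed. Agxt2 overlaps a gene of its own strand, so its reads may be mixed whether or not strand is marked.

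Within groups the members had a wider range than most genes, as the plot of all members by library shows. In wildtype the log2 range between the highest and the lowest library had a median of 2.02 over 35 members, against 0.36 over the 17951 genes above 1 CPM. The same medians were 0.40 against 0.17 in Myc and 1.31 against 0.25 in Grhl2KO_Myc. A range above 1, that is more than a doubling, was seen for 32, 5 and 22 members in wildtype, Myc and Grhl2KO_Myc, and for 8.94%, 1.60% and 5.44% of those genes. Miox had the widest wildtype range, 26.1-fold, followed by the dicarboxylate carrier Slc13a3 with 15.5-fold, the sulfate carrier Slc13a1 with 10.8-fold and the urate and organic anion carrier Slc17a3 with 8.34-fold. Cyp4b1, a cytochrome P450 gene, Keg1 and Hnf4a had the narrowest, 1.51-fold, 1.54-fold and 1.64-fold. Within Grhl2KO_Myc the widest range was that of Pck1, the enzyme that commits carbon to gluconeogenesis, at 15.3-fold, and Slc13a3 came next at 9.54-fold.

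A few libraries carried this spread. Wildtype 4 was the lowest wildtype library for 32 of 35 members, all but Keg1, Cyp4b1 and Hnf4a. In Grhl2KO_Myc 34 of 35 members, all but Cyp4b1, were lower in libraries 3 and 4 than in libraries 1 and 2. The shares of all genes tested with these arrangements were not computed, so these counts describe the members only. For 29 of 35 members wildtype 4, Grhl2KO_Myc 3 and Grhl2KO_Myc 4 all lay below the other 9 libraries, an arrangement found for 6.43% of all genes tested, given as a description since the members mark these libraries. The 6 members outside it were Slc5a2, Slc5a12, Slc22a7, Keg1, Cyp4b1 and Hnf4a. Summed over the members, wildtype 1 to 5 reached 3701, 6128, 6499.8, 1893 and 6395 CPM, Myc 1 to 3 reached 4101, 5103 and 5596 CPM and Grhl2KO_Myc 1 to 4 reached 4812, 4164, 2029 and 2153 CPM. The lowest of these sums belonged to wildtype 4, followed by Grhl2KO_Myc 3 and Grhl2KO_Myc 4. Of these 3 low libraries wildtype 4 had Xist, Grhl2KO_Myc 4 had Ddx3y and Grhl2KO_Myc 3 had neither. No cause of the low sums was tested.

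**Figure D1:**
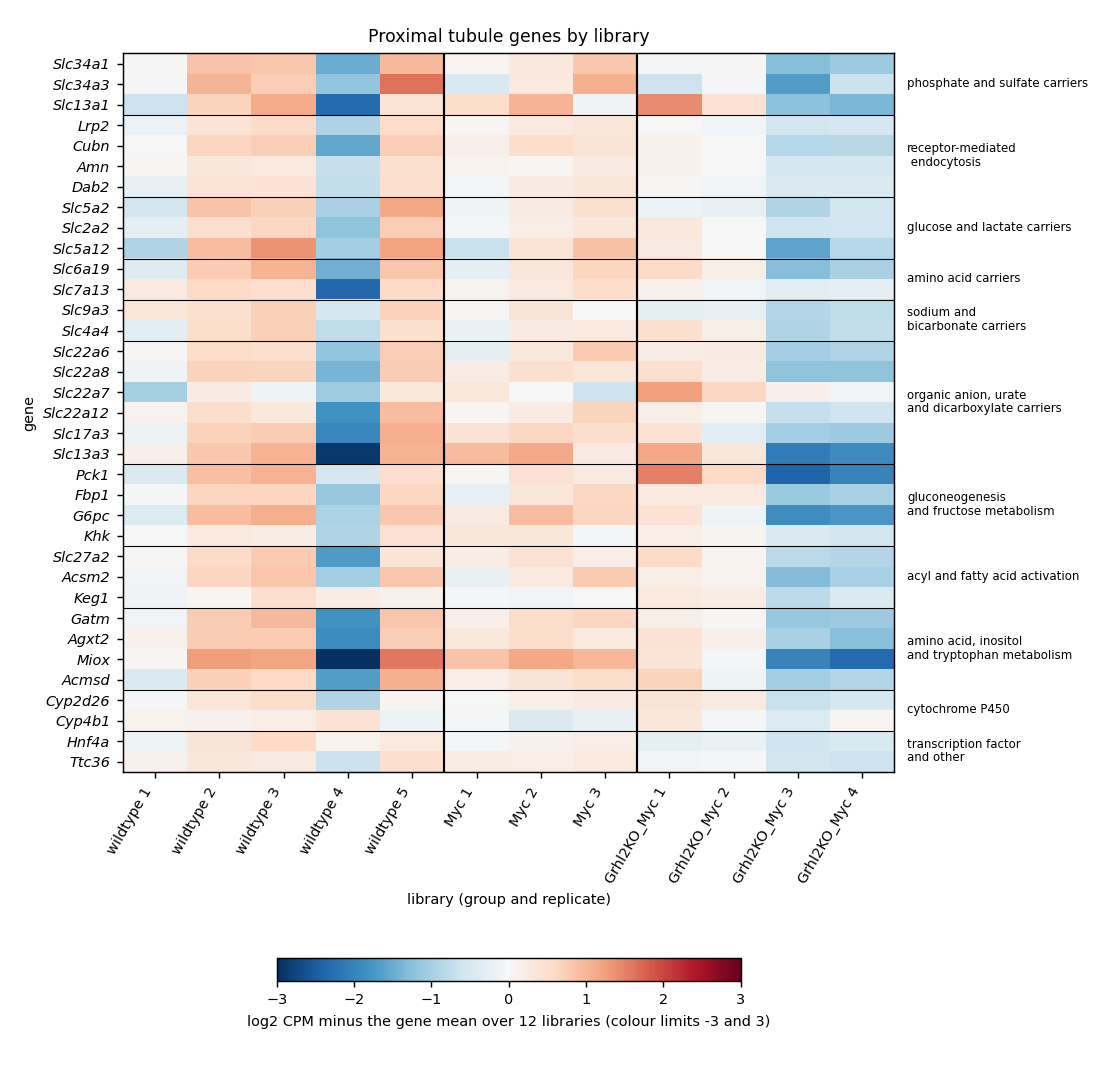
Level of each of the 35 tested members (rows, grouped by role) in each of the 12 libraries (columns), as log2 CPM minus the mean of the gene over the 12 libraries, with colour limits at -3 and 3. The columns of wildtype 4, Grhl2KO_Myc 3 and Grhl2KO_Myc 4 are blue for nearly all members, while Cyp4b1 varies little and Hnf4a is not low in wildtype 4.

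The Grhl2KO_Myc group was set against wildtype to see how the proximal tubule genes stood where the labels combine the Grhl2 knockout and Myc overexpression. Hnf4a, which encodes a nuclear receptor that drives many genes of the proximal tubule, fell 1.57-fold, and Slc9a3, the sodium-hydrogen exchanger that starts bicarbonate and salt recovery, fell 1.88-fold. They were the only members called, 2 lower and 0 higher of 35, where 6.67% of all genes tested passed in either direction and 2.61% passed as lower. Of the members 33 had a log2 fold change below 0, with a median of -0.51 against -0.01 over all genes tested. The log2 fold changes ran from -1.37 for Slc34a3 to 0.80 for Slc22a7, and 6 members had an unadjusted p under 0.05, as had 22% of all genes tested.

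Hnf4a (ENSMUSG00000017950.16, chromosome 2, 163506808 to 163572910, plus strand, mm10) was at 135, 192, 221, 159.5 and 181 CPM in wildtype 1 to 5, at 141, 162 and 169 CPM in Myc 1 to 3 and at 121, 128, 97.5 and 108 CPM in Grhl2KO_Myc 1 to 4. Every Grhl2KO_Myc library lay below every wildtype and every Myc library, and wildtype 4 was not low for this gene. The means were 114 ± 13.7 CPM in Grhl2KO_Myc (SD, n = 4) and 178 ± 32.8 CPM in wildtype (n = 5), a log2 fold change of -0.65 (edgeR adjusted p = 0.012, SE 0.13). It was the only member without overlap in that direction, against 3.81% of all genes tested. The call held without each library in turn (adjusted p 0.0050 to 0.045) and missed the threshold without wildtype 4, Grhl2KO_Myc 3 and Grhl2KO_Myc 4 together (-0.56, adjusted p = 0.053).

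Slc9a3 (ENSMUSG00000036123.8, chromosome 13, 74121457 to 74169442, plus strand, mm10) was at 13.3, 14.4, 16.9, 7.23 and 16.6 CPM in wildtype 1 to 5, at 10.6, 13.6 and 10.5 CPM in Myc 1 to 3 and at 8.62, 8.77, 5.63 and 6.1 CPM in Grhl2KO_Myc 1 to 4. The Grhl2KO_Myc libraries lay below the other 4 wildtype libraries but overlapped with wildtype 4, and all lay below the Myc libraries. Its means were 7.28 ± 1.65 CPM in Grhl2KO_Myc and 13.7 ± 3.91 CPM in wildtype, a log2 fold change of -0.91 (edgeR adjusted p = 0.034, SE 0.23). It missed the threshold when wildtype 1 was left out (adjusted p = 0.067), and likewise wildtype 2 (0.070), wildtype 3 (0.081), wildtype 5 (0.068), Grhl2KO_Myc 3 (0.099) or Grhl2KO_Myc 4 (0.10). It also missed when only the groups compared were fitted (0.063) and with a term for Ddx3y (0.056). Without the 3 low libraries together it held, at -0.82 (adjusted p = 0.0085). Slc4a4, the basolateral cotransporter that passes bicarbonate on to blood, was at 70.4 to 196 CPM in wildtype, 103 to 145 in Myc and 63.9 to 165 in Grhl2KO_Myc, with a log2 fold change over wildtype of -0.37 (edgeR adjusted p = 0.56, SE 0.33).

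Wildtype 4 weighed most on the count of calls. Without it, 12 members were called, all lower: Hnf4a, Slc9a3, Slc34a1, Slc34a3, Lrp2, Cubn, Amn, Dab2, Slc5a2, Slc7a13, Gatm and Ttc36, while 6.97% of all genes tested were then called lower. They include Lrp2 (-0.64, edgeR adjusted p = 0.028), its partner Cubn (-0.89, adjusted p = 0.026), Amn and Dab2. None of these endocytosis genes was called with all libraries, or without the 3 low libraries together. Since wildtype 4 was the lowest wildtype library for most members, leaving it out alone lowers their fold changes in advance. Without wildtype 4, Grhl2KO_Myc 3 and Grhl2KO_Myc 4, 3 members were called lower, Slc9a3, Slc7a13 (-0.47, edgeR adjusted p = 0.044) and Ttc36 (-0.38, adjusted p = 0.025), where 4.61% of all genes tested passed as lower. The median over the members was then -0.32, and -0.72 without wildtype 4 alone. Leaving out these 3 libraries together was chosen after the data were seen.

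The product of Hnf4a and the HNF1 factors are known regulators of proximal tubule genes, so the promoters of members were searched for their motifs. Windows of 300 bases were used, 250 before and 50 after an annotated start (RefSeq, GRCm38.p6), which need not be the outermost start of the gene. Of 36 members 29 matched a promoter, with 34 windows between them. On either strand the HNF1 motif GTTAATNNT was found in 4 of them (13.8%, against 2.99% of the 27025 genes with a promoter), and the HNF4 motif CAAAGTCCA or CAAAGTTCA in 1 (3.45% against 0.995%). The 4 with the HNF1 motif were Slc22a6, Slc22a8, G6pc and Hnf4a itself, and the one with the HNF4 motif was Agxt2. The short HNF1 motif GTTAAT, which the longer motif contains, was found in 11 (37.9% against 8.24%), and the MYC E-box CACGTG in 4 (13.8% against 8.09%), Amn, Slc9a3, Slc13a3 and Khk. The Grainyhead motif AACCNGTT was found in 0 of 29 (0% against 2.35%). These are matches of letters and not sites of binding. The windows with an HNF1 or HNF4 match are shown because Hnf4a was called and carries 1 of these motifs in its own promoter: Slc22a6 (chr19:8617746-8618045), Hnf4a (chr2:163546905-163547204), G6pc (chr11:101367466-101367765), Slc22a8 (chr19:8592932-8593231) and Agxt2 (chr15:10358283-10358582), all genes of the plus strand. The windows of Hnf4a and Slc22a8 lie inside these genes as annotated (from 163506808 and 8591254), and so not at their outermost start. Capitals mark the match, which in Hnf4a lies on the other strand and so reads as the reverse complement.
Slc22a6: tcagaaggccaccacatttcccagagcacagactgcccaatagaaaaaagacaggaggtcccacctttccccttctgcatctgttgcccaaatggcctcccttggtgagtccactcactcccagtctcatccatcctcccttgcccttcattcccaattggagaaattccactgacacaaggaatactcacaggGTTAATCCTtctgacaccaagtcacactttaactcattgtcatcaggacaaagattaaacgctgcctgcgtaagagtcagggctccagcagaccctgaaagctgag
Hnf4a: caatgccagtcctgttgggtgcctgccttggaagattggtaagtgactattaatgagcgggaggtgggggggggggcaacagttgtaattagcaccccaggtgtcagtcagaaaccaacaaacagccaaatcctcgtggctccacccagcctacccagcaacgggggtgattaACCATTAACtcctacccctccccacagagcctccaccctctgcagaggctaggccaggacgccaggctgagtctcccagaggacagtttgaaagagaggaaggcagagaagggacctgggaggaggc
G6pc: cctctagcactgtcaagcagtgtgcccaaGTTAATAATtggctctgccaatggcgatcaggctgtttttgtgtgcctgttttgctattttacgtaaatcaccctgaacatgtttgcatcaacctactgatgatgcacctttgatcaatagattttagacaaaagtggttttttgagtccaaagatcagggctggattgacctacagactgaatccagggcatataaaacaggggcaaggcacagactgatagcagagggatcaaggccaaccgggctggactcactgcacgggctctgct
Slc22a8: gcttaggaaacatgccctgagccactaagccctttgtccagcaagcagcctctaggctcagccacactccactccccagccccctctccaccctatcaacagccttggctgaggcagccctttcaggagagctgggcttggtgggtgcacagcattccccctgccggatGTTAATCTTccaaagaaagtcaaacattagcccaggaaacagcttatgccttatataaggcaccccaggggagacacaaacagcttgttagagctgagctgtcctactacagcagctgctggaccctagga
Agxt2: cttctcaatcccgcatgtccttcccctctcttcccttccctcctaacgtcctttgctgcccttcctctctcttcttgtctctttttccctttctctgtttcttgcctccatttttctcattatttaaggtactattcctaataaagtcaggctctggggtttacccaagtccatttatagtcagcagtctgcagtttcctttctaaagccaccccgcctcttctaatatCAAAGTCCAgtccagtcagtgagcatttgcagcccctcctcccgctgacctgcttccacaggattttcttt

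Among the phosphate and sulfate carriers, Slc34a1 was at 649, 1140.2, 1113, 224 and 1231 CPM in wildtype 1 to 5, at 651, 784 and 1101 CPM in Myc 1 to 3 and at 602, 648, 258 and 294 CPM in Grhl2KO_Myc 1 to 4. Grhl2KO_Myc 3 and 4 and wildtype 4 were the lowest, and the groups overlapped through wildtype 4. Its log2 fold change over wildtype was -0.95 (edgeR adjusted p = 0.23, SE 0.44). Slc34a3, known for a smaller part in phosphate uptake in mice, was at 2.46, 5.17, 4.28, 1.11 and 7.92 CPM in wildtype 1 to 5, at 1.86, 3.11 and 5.36 CPM in Myc 1 to 3 and at 1.64, 2.44, 0.779 and 1.62 CPM in Grhl2KO_Myc 1 to 4. Wildtype 4 lay below all but Grhl2KO_Myc 3, so the groups overlapped. Its log2 fold change, -1.37 (edgeR adjusted p = 0.13, SE 0.51), was the largest decrease among the members and did not pass. Slc13a1, the sodium-sulfate cotransporter, was at 9.42, 22.8, 31.6, 2.92 and 19.3 CPM in wildtype 1 to 5, at 21.1, 29.3 and 13.4 CPM in Myc 1 to 3 and at 38.4, 19.7, 6.13 and 5.62 CPM in Grhl2KO_Myc 1 to 4, and the highest library of all was a Grhl2KO_Myc kidney.

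The receptor complex for filtered protein showed the same library order in its receptors. Lrp2, which encodes megalin, was at 416, 629, 704, 248 and 684 CPM in wildtype 1 to 5, at 483, 571 and 606 CPM in Myc 1 to 3 and at 473, 442, 323 and 327 CPM in Grhl2KO_Myc 1 to 4. Cubn, which encodes its partner cubilin, was at 126, 201, 214, 43.1 and 212 CPM in wildtype 1 to 5, at 142, 184 and 168 CPM in Myc 1 to 3 and at 139, 126, 70.2 and 71.6 CPM in Grhl2KO_Myc 1 to 4. In both genes the 3 low libraries lay below the other 9, and wildtype 4 lay lowest. Amn, the membrane anchor of cubilin, was at 48.3 to 109 CPM in wildtype, 81.4 to 93.7 in Myc and 54.7 to 85 in Grhl2KO_Myc, and Dab2, the adaptor that links megalin to the clathrin coat, at 143 to 343 CPM in wildtype, 234 to 302 in Myc and 178 to 245 in Grhl2KO_Myc. The log2 fold changes over wildtype were -0.46, -0.64, -0.34 and -0.37 for Lrp2, Cubn, Amn and Dab2, with edgeR adjusted p-values from 0.33 to 0.37.

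Of the glucose and lactate carriers, Slc5a2, the sodium-glucose cotransporter of the early proximal tubule that gliflozin drugs block, was at 21.7, 58.4, 53.1, 16.3 and 72.4 CPM in wildtype 1 to 5, at 29.2, 38.6 and 45 CPM in Myc 1 to 3 and at 29.1, 27.8, 17.3 and 21.8 CPM in Grhl2KO_Myc 1 to 4. Wildtype 4 and Grhl2KO_Myc 3 were lowest, yet wildtype 1 lay at the level of Grhl2KO_Myc 4, so this gene did not single out the 3 libraries. Its log2 fold change was -0.89 (edgeR adjusted p = 0.19, SE 0.38). Slc2a2, the basolateral glucose exit, was at 20.4 to 79.4 CPM in wildtype, 46 to 60.7 in Myc and 31.6 to 59.7 in Grhl2KO_Myc (-0.39, adjusted p = 0.54). Slc5a12, a lactate uptake carrier, was at 11 to 56.1 CPM in wildtype, 14 to 41 in Myc and 7.33 to 26.7 in Grhl2KO_Myc (-1.02, adjusted p = 0.30). For the neutral amino acid carrier Slc6a19 the values were 8.39 to 47 CPM in wildtype, 18.7 to 35.8 in Myc and 9.4 to 34.3 in Grhl2KO_Myc (-0.59, adjusted p = 0.52).

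Slc7a13, an acidic amino acid and cystine carrier of the late proximal tubule, was at 23.7, 29.1, 27.5, 3.73 and 29.1 CPM in wildtype 1 to 5, at 21, 23.7 and 28.4 CPM in Myc 1 to 3 and at 21.2, 18.3, 15.4 and 15.8 CPM in Grhl2KO_Myc 1 to 4. Wildtype 4 lay far below every other library, and the Grhl2KO_Myc libraries lay below the other 4 wildtype libraries. With wildtype 4 included the log2 fold change was -0.36 (edgeR adjusted p = 0.66, SE 0.41). Slc7a13 is known for sex-biased expression. In the libraries with Ddx3y it was at 29.1, 28.4, 21.2 and 15.8 CPM (wildtype 5, Myc 3, Grhl2KO_Myc 1 and Grhl2KO_Myc 4), and a difference by sex was not tested.

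**Figure D2:**
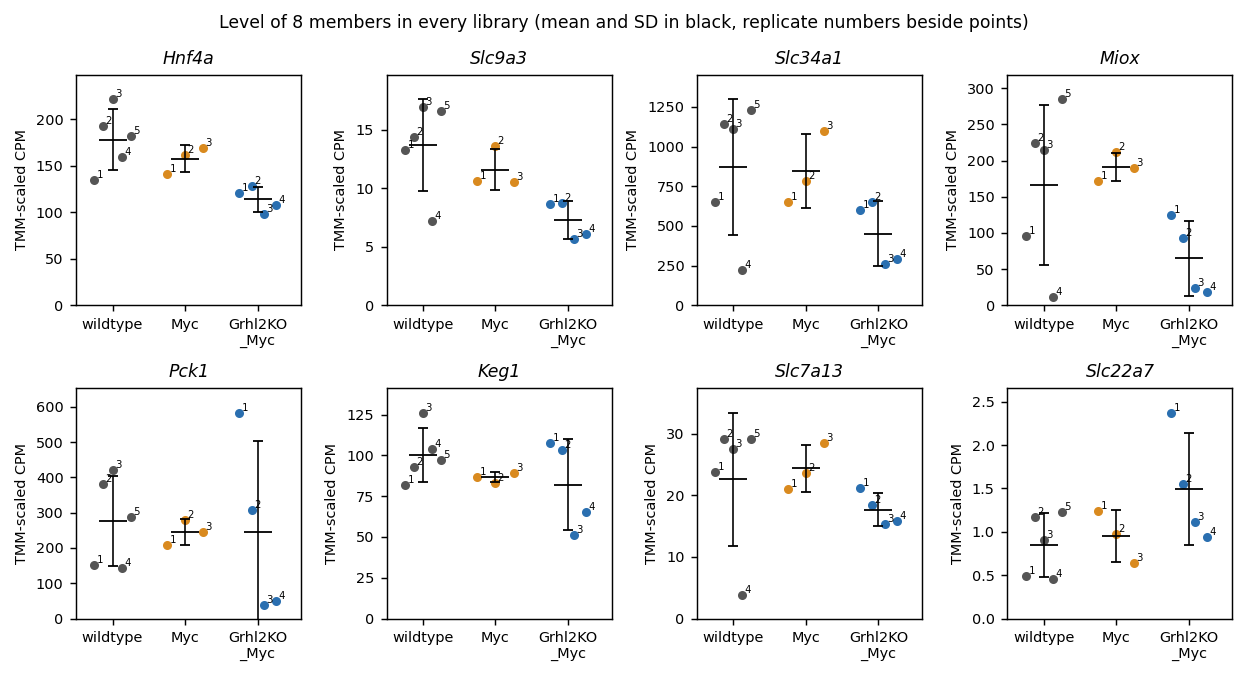
CPM of 8 members in each library of wildtype (n = 5), Myc (n = 3) and Grhl2KO_Myc (n = 4), with points numbered by replicate, the mean as a horizontal line and the SD as an error bar; each axis starts at 0, which cuts the lower error bar of Pck1 in Grhl2KO_Myc. Hnf4a separates Grhl2KO_Myc from wildtype in every library, while wildtype 4 falls to or below the Grhl2KO_Myc level for Slc9a3, Slc34a1, Miox and Slc7a13.

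The organic anion and urate carriers followed the same library order with 1 exception. Slc22a6, the main basolateral organic anion exchanger, was at 174, 248, 238, 75.2 and 283 CPM in wildtype 1 to 5, at 141, 210.3 and 291 CPM in Myc 1 to 3 and at 197, 199.6, 84 and 91.2 CPM in Grhl2KO_Myc 1 to 4. Slc22a8, its close relative, was at 26.7 to 118 CPM in wildtype, 81.3 to 98 in Myc and 30.0 to 98 in Grhl2KO_Myc, and the urate exchanger Slc22a12 at 15 to 101 CPM in wildtype, 55.3 to 84.2 in Myc and 32.8 to 61.4 in Grhl2KO_Myc. In these 3 genes the 3 low libraries lay below the other 9, and the log2 fold changes over wildtype were -0.51, -0.53 and -0.46 with edgeR adjusted p of 0.47, 0.52 and 0.53. Slc17a3 lay at 5.68 to 47.3 CPM in wildtype, 29.8 to 33.9 in Myc and 10.3 to 29.6 in Grhl2KO_Myc (-0.77, adjusted p = 0.38). Slc13a3, which brings in dicarboxylates that organic anion exchange uses, was at 37.3, 59.7, 69.9, 4.51 and 69.7 CPM in wildtype 1 to 5, at 65.8, 74.1 and 40.2 CPM in Myc 1 to 3 and at 75.3, 42.7, 7.9 and 9.13 CPM in Grhl2KO_Myc 1 to 4. Wildtype 4 was 4.51 CPM where no other wildtype library was below 37.3 CPM, and Grhl2KO_Myc split between libraries 1 and 2 and libraries 3 and 4.

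The exception was Slc22a7, another late-segment anion carrier known to be sex-biased, at 0.485, 1.18, 0.909, 0.458 and 1.23 CPM in wildtype 1 to 5, at 1.24, 0.975 and 0.637 CPM in Myc 1 to 3 and at 2.38, 1.55, 1.11 and 0.94 CPM in Grhl2KO_Myc 1 to 4. Grhl2KO_Myc 1 and 2 were the highest of all libraries, and the groups overlapped. Its log2 fold change over wildtype was 0.80 (edgeR adjusted p = 0.21, SE 0.36), the largest increase among the members and below the threshold. Its levels rest on 27 to 184 counts per library, and the gene lay low in wildtype 1 and wildtype 4 alike.

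Of the genes for glucose making and fructose use, Pck1 was at 150.3, 382, 420.1, 143 and 287 CPM in wildtype 1 to 5, at 207, 280.4 and 246 CPM in Myc 1 to 3 and at 583, 307, 38.3 and 50.5 CPM in Grhl2KO_Myc 1 to 4. Grhl2KO_Myc held both the highest library, number 1, and the lowest, numbers 3 and 4, so that its mean was 245 ± 258 CPM against 276 ± 128 CPM in wildtype, a log2 fold change of -0.18 (edgeR adjusted p = 0.91, SE 0.66). G6pc, the last step that frees glucose, was at 42.2, 106, 118, 29.1 and 97.5 CPM in wildtype 1 to 5, at 67.5, 107 and 87.7 CPM in Myc 1 to 3 and at 75.4, 51.1, 15.2 and 16.6 CPM in Grhl2KO_Myc 1 to 4. Here too Grhl2KO_Myc 3 and 4 were lowest, below wildtype 4, and the log2 fold change was -0.995 (edgeR adjusted p = 0.29, SE 0.52). Fbp1 was at 231, 373, 368, 108 and 365 CPM in wildtype 1 to 5, at 199, 305 and 363 CPM in Myc 1 to 3 and at 290.0, 292, 110.2 and 119.9 CPM in Grhl2KO_Myc 1 to 4. Wildtype 4 and Grhl2KO_Myc 3 and 4 stood within a narrow band of each other, and the other libraries all lay higher. Khk, the kinase that takes up fructose, was at 22.6 to 58.3 CPM in wildtype, 41.7 to 54 in Myc and 29 to 48.5 in Grhl2KO_Myc (-0.23, adjusted p = 0.61).

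In the remaining metabolic roles Miox was at 96.1, 224, 214, 10.9 and 285 CPM in wildtype 1 to 5, at 172, 212 and 189 CPM in Myc 1 to 3 and at 124, 92.7, 23.7 and 18.6 CPM in Grhl2KO_Myc 1 to 4. Wildtype 4 was the lowest library of all and Grhl2KO_Myc 3 and 4 came next, while Grhl2KO_Myc 1 and 2 lay near wildtype 1 and below wildtype 2, 3 and 5. Its means were 64.8 ± 52.1 CPM and 166 ± 110.4 CPM in Grhl2KO_Myc and wildtype, a log2 fold change of -1.36 (edgeR adjusted p = 0.31, SE 0.75). Gatm was at 272, 490.1, 566, 82.3 and 509 CPM in wildtype 1 to 5, at 318, 419 and 447 CPM in Myc 1 to 3 and at 323, 296, 132 and 135 CPM in Grhl2KO_Myc 1 to 4, again lowest in wildtype 4, with a log2 fold change of -0.79 (edgeR adjusted p = 0.34, SE 0.46). Agxt2, a mitochondrial aminotransferase that clears methylated arginine, was at 10.9 to 69.1 CPM in wildtype, 50.01 to 58.2 in Myc and 17.1 to 55.3 in Grhl2KO_Myc (-0.60, adjusted p = 0.49). Acmsd, which sends tryptophan carbon toward full oxidation, was at 3.79 to 25.2 CPM in wildtype, 13.8 to 17.6 in Myc and 5.89 to 19.2 in Grhl2KO_Myc (-0.51, adjusted p = 0.57).

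Slc27a2, which activates long fatty acids, was at 61.5 to 344 CPM in wildtype, 229.8 to 276 in Myc and 109 to 302 in Grhl2KO_Myc (-0.34, edgeR adjusted p = 0.68), and Acsm2, which activates acids of medium length, at 71.5 to 261 CPM in wildtype, 125 to 254 in Myc and 59.1 to 165 in Grhl2KO_Myc (-0.75, adjusted p = 0.31). Keg1 had another order, at 82, 92.8, 126, 104 and 97.2 CPM in wildtype 1 to 5, at 87.1, 83.2 and 89.3 CPM in Myc 1 to 3 and at 108, 103, 51.4 and 65.6 CPM in Grhl2KO_Myc 1 to 4. Wildtype 4 was higher than wildtype 1, 2 and 5 for it, while Grhl2KO_Myc 3 and 4 were the lowest of all 12. Its log2 fold change was -0.29 (edgeR adjusted p = 0.41, SE 0.19). Cyp2d26, a cytochrome P450 gene with near copies that may share its reads, which makes its counts uncertain, was at 46.5 to 129 CPM in wildtype, 89 to 106 in Myc and 54.9 to 115 in Grhl2KO_Myc (-0.15, adjusted p = 0.79). Cyp4b1, known to be sex-biased, was at 5.82, 5.86, 6.17, 7.36 and 4.87 CPM in wildtype 1 to 5, at 5.2, 3.99 and 4.66 CPM in Myc 1 to 3 and at 6.88, 5.28, 4.09 and 5.66 CPM in Grhl2KO_Myc 1 to 4, highest in wildtype 4 and with overlapping groups. Ttc36, a gene of a tetratricopeptide repeat protein, was at 96.2, 112, 106, 56.3 and 125 CPM in wildtype 1 to 5, at 103, 101 and 107 CPM in Myc 1 to 3 and at 83.6, 86.6, 60.7 and 57.1 CPM in Grhl2KO_Myc 1 to 4. Of its wildtype libraries only number 4 reached the level of Grhl2KO_Myc 3 and 4, and its log2 fold change was -0.46 (edgeR adjusted p = 0.19, SE 0.20).

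**Figure D3:**
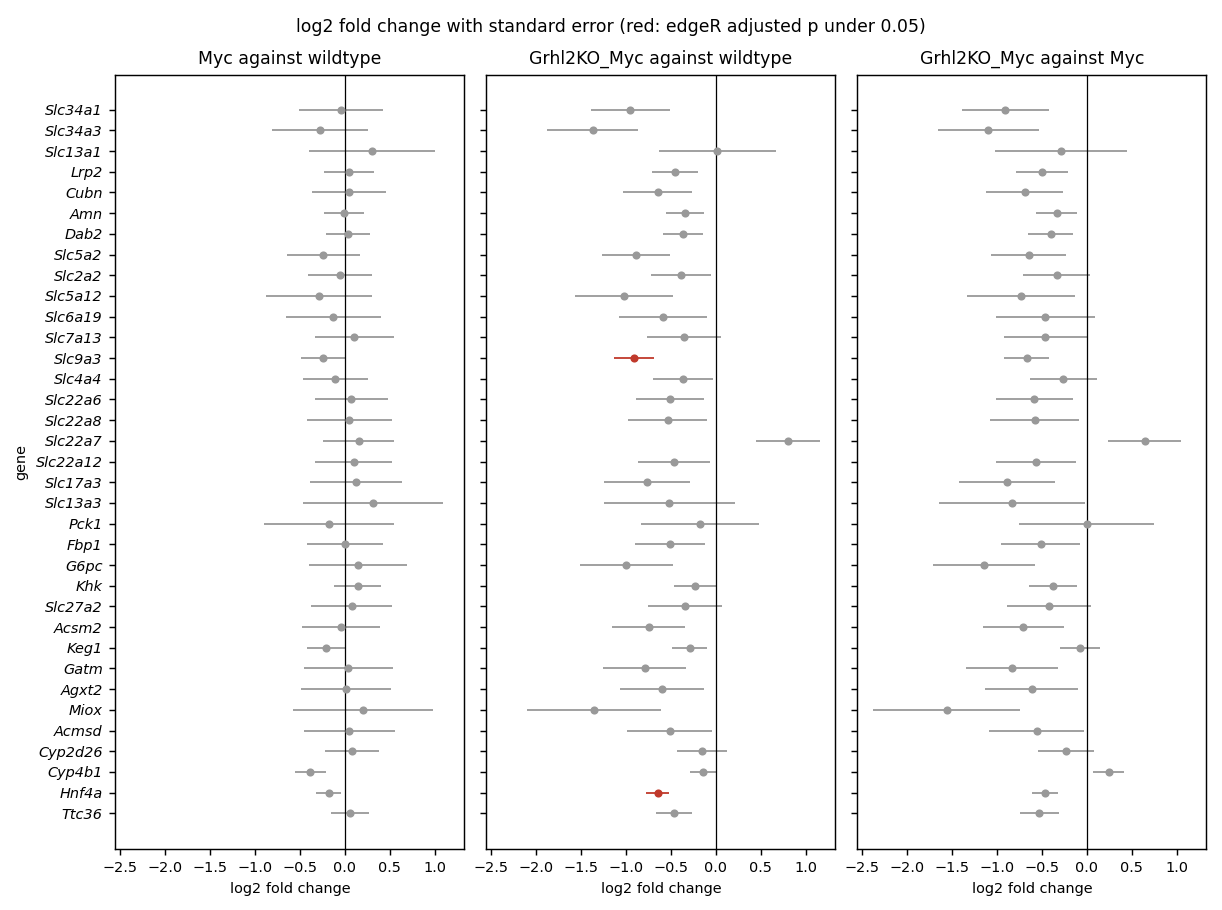
Log2 fold change of each tested member with its standard error (horizontal bar) in the 3 comparisons, ordered by role, with the line at 0 for no difference and red for an edgeR adjusted p under 0.05. In both comparisons of Grhl2KO_Myc nearly all members lie left of 0, and only Hnf4a and Slc9a3, against wildtype, passed the test.

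The Myc group was set against wildtype, from which the labels distinguish it by Myc overexpression. No member was called, 0 of 35 by edgeR, DESeq2 and limma-voom, where 0.00421% of all genes tested passed. The median log2 fold change was 0.04 against 0.00 over all genes, with 21 members above 0 and 14 below. Values ran from -0.38 for Cyp4b1 (SE 0.17, unadjusted p = 0.042), the 1 member with an unadjusted p under 0.05 (against 4.62% of all genes tested), to 0.32 for Slc13a3. No member had its Myc libraries all on 1 side of the wildtype libraries, against 3.57% of all genes tested. The sign of the median was not stable, since it was -0.19 without wildtype 4, where 19 members changed sign, and -0.04, -0.01 and -0.06 without wildtype 1, Myc 2 and Myc 3. Hnf4a stood at 157 ± 14.5 CPM in Myc (n = 3), a log2 fold change of -0.18 (edgeR adjusted p = 1.00, SE 0.14), and Slc34a1 at 845 ± 231 CPM (-0.04, adjusted p = 1.00).

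The Grhl2KO_Myc group was set against the Myc group, a contrast the labels define by the knockout. This comparison uses the same Grhl2KO_Myc libraries as the one against wildtype, so their values are not independent. No member was called by edgeR, 0 of 35, where 0.842% of all genes tested passed, and 3 members had an unadjusted p under 0.05, against 13.3% of all genes tested. By limma-voom 0 members were called, and DESeq2 called 1, Hnf4a (adjusted p = 0.048). The median log2 fold change was -0.53, with 32 members below 0, and the range ran from -1.56 for Miox to 0.65 for Slc22a7. Every Grhl2KO_Myc library lay below every Myc library for 9 members, Slc34a1, Lrp2, Cubn, Slc5a2, Slc9a3, Slc17a3, Miox, Hnf4a and Ttc36, against 7.89% of all genes tested. For Hnf4a the log2 fold change was -0.47 (edgeR adjusted p = 0.18, SE 0.14), for Slc9a3 -0.67 (edgeR adjusted p = 0.27, SE 0.25) and for Miox -1.56 (edgeR adjusted p = 0.45, SE 0.82). With Grhl2KO_Myc 3 and 4 set aside, these 9 members stay below every Myc library by necessity, so this step cannot test them. No further member joined them, while the share of all genes tested rose from 7.89% to 17.7%. Without wildtype 4, Grhl2KO_Myc 3 and Grhl2KO_Myc 4 the median was -0.11, against -0.40 without Grhl2KO_Myc 3 alone and -0.41 without Grhl2KO_Myc 4 alone.

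Side by side, the log2 fold changes of Grhl2KO_Myc against wildtype and against Myc were -0.65 and -0.47 for Hnf4a, -0.91 and -0.67 for Slc9a3 and -1.36 and -1.56 for Miox. For Slc34a1 they were -0.95 and -0.91, for Pck1 -0.18 and 0.00, and for Keg1 -0.29 and -0.08. For Slc13a1 they were 0.02 and -0.29, for Slc13a3 -0.52 and -0.83, for Fbp1 -0.51 and -0.51 and for Cyp4b1 -0.14 and 0.25, none of which passed. Whether a member differed more from wildtype than from Myc was not tested.

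Other genes of the same segment were also low on balance in Grhl2KO_Myc, with few calls, where 2.61% of all genes tested were called lower against wildtype. Of 44 other proximal tubule carriers 0 rose and 1 fell against wildtype, with a median of -0.38. The gene that fell was Slc36a2, a carrier of glycine and proline of which little was measured, at 0.318 ± 0.14 against 0.876 ± 0.316 CPM, a log2 fold change of -1.47 (edgeR adjusted p = 0.039, SE 0.38). Of 12 brush border enzyme genes 0 were called and all 12 lay below 0 (median -0.39), led by Mme, which encodes neprilysin, at -0.40 (edgeR adjusted p = 0.096, SE 0.13). Of 10 further genes of gluconeogenesis and fructose use 0 were called (median -0.20). Of 38 further metabolic genes 0 rose and 1 fell (median -0.33), Cyp2e1, a cytochrome P450 gene that male and female mice are known to express unequally, at -0.97 (edgeR adjusted p = 0.037, SE 0.25). Of 16 regulators 0 rose and 1 fell (median -0.16), Ppargc1a, a coactivator of mitochondrial genes, at 40.7 ± 3.53 against 51.8 ± 5.48 CPM, a log2 fold change of -0.35 (edgeR adjusted p = 0.038, SE 0.089). Each of these 3 calls missed the threshold without several of the single libraries. For Slc36a2 these were wildtype 1, 2, 3 and 5, Myc 2 and Grhl2KO_Myc 2, 3 and 4 (adjusted p from 0.052 to 0.12), for Cyp2e1 wildtype 1, 2, 3 and 5, Myc 2 and Grhl2KO_Myc 1 to 4 (0.052 to 0.094), and for Ppargc1a wildtype 1 and 3, Myc 3 and Grhl2KO_Myc 1, 3 and 4 (0.053 to 0.11). The Ddx3y term also ended the calls of Slc36a2 (0.092) and Ppargc1a (0.072), fitting only the groups compared those of Cyp2e1 (0.063) and Ppargc1a (0.052), limma-voom that of Cyp2e1 (0.063) and the filter of 1 count that of Ppargc1a (0.053). Without the 3 low libraries together their adjusted p-values were 0.10, 0.018 and 0.19. The list medians were then -0.25 for carriers, -0.23 for brush border enzymes, -0.04 for gluconeogenesis and fructose use, -0.18 for metabolism and -0.13 for regulators. In the same order 0, 0, 1, 1 and 1 genes were then called higher and 2, 2, 0, 2 and 0 lower. Of all 23961 genes tested in that fit 1167 were called higher and 1105 (4.61%) lower. With all libraries, in these 5 lists 0 genes were called in Myc against wildtype and 0 in Grhl2KO_Myc against Myc.

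By position along the tubule, the 11 early-segment genes, all of them members, had a median log2 fold change over wildtype of -0.53, and the 9 late-segment genes, with Slc7a13 and Slc22a7 among them, one of -0.30. Neither list had a call, and a difference between them was not tested. Without the 3 low libraries these medians were -0.28 and -0.26, with 0 early and 1 late gene called, the latter lower, where 4.61% of all genes tested passed as lower. Summed over the early genes, wildtype 1 to 5 reached 1143, 1981, 1989.7, 471 and 2170.2 CPM and Grhl2KO_Myc 1 to 4 reached 1313, 1262, 541 and 606 CPM. For the late genes these sums were 489, 607, 605, 154 and 633 CPM and 499, 469, 287 and 289 CPM. In wildtype 4 both the early and the late sum were the lowest of all 12 libraries.

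Markers of other kidney cells moved with the members in some lists, and their part in the results was not tested. The 11 thick ascending limb markers summed to 1608, 1484, 1565, 961 and 1511 CPM in wildtype 1 to 5, to 1509, 1488 and 1221 CPM in Myc 1 to 3 and to 1181, 1141, 923 and 876 CPM in Grhl2KO_Myc 1 to 4, lowest in the same 3 libraries, with 0 called in Grhl2KO_Myc against wildtype. All 11 had a log2 fold change below 0 in that comparison, and by edgeR 7 had an unadjusted p under 0.05, against 22% of all genes tested. Umod, the most known product of that limb, was at 444, 412, 396, 158 and 418 CPM in wildtype 1 to 5 and at 270.3, 239, 161 and 144 CPM in Grhl2KO_Myc 1 to 4. The 12 intercalated cell markers also summed lowest in wildtype 4, Grhl2KO_Myc 3 and Grhl2KO_Myc 4, to 213, 287 and 260 CPM. In the same libraries the 13 thin limb and inner medulla markers, some of them shared with other lists here, summed lowest, to 556, 543 and 491 CPM. Next in both lists was Grhl2KO_Myc 2, at 303 and 580 CPM. The 8 nephron progenitor markers summed to 404, 384, 360.4, 482 and 393 CPM in wildtype 1 to 5 and to 344, 372, 421 and 462 CPM in Grhl2KO_Myc 1 to 4. Six2, which keeps progenitors undifferentiated, was at 36.7, 32.8, 31.3, 73.3 and 36.4 CPM in wildtype 1 to 5, at 32.5, 32.9 and 38 CPM in Myc 1 to 3 and at 41.9, 47.5, 59 and 69.8 CPM in Grhl2KO_Myc 1 to 4, highest in wildtype 4, Grhl2KO_Myc 3 and Grhl2KO_Myc 4. Cited1, another progenitor marker, was at 17.3, 15.8, 15.3, 37 and 16.7 CPM in wildtype 1 to 5 and at 25.2, 27.3, 28 and 31.4 CPM in Grhl2KO_Myc 1 to 4. Neither Six2 nor Cited1 was called, and not every gene of the list was high in these libraries. Crym was called higher in Grhl2KO_Myc (21.1 ± 3.76 against 14.8 ± 1.29 CPM in wildtype, adjusted p = 0.028) and Lhx1 lower (54 ± 4.23 against 86.5 ± 8.59 CPM, adjusted p = 0.00090), while Meox1 was lowest among wildtype libraries in wildtype 4, at 13.7 CPM. The 12 principal cell markers summed to 1062 to 1365 CPM in wildtype, 1195 to 1359.9 in Myc and 1120.2 to 1273 in Grhl2KO_Myc, and the sum was not low in those libraries. Of these markers 3 of 12, Elf5, Avpr2 and Aqp4, were called lower in Grhl2KO_Myc against both wildtype and Myc. The 10 distal convoluted tubule markers summed to 742 to 918 CPM in wildtype, 750.2 to 809 in Myc and 544 to 745 in Grhl2KO_Myc. Against wildtype 0 were called and 9 had a log2 fold change below 0. By edgeR 7 had an unadjusted p under 0.05, against 22% of all genes tested. The 12 endothelial markers summed to 1141 to 1285 CPM in wildtype, 1056 to 1132 in Myc and 1047 to 1112 in Grhl2KO_Myc, and 3 of 12, Tek, Kdr and Flt1, were called lower against wildtype. The 12 podocyte markers summed to 1892 to 2305 CPM in wildtype, 1941 to 2129 in Myc and 1729 to 1831 in Grhl2KO_Myc, with 3 of 12 called lower in Grhl2KO_Myc against wildtype. All 12 endothelial and all 12 podocyte markers had a log2 fold change below 0 in that comparison. By edgeR 6 endothelial and 7 podocyte markers had an unadjusted p under 0.05, against 22% of all genes tested. Of all genes tested 2.61% were called lower in Grhl2KO_Myc against wildtype, and 115 of 23742 against Myc. Of the 14 tubular injury genes 0 were called higher and 2 lower against wildtype, Clu (141 ± 10.9 against 179 ± 15.6 CPM) and Cdh6 (5.38 ± 0.343 against 8.41 ± 0.809 CPM). Of these 14 genes 9 had a log2 fold change above 0 and 5 below, with a median of 0.07. In Grhl2KO_Myc against Myc 0 were called, with 11 above 0, 3 below and a median of 0.19. Havcr1 was at 0.18 CPM in wildtype 4, the lowest of 12 libraries, and at 0.79 and 0.648 CPM in Grhl2KO_Myc 3 and 4. The injury list summed to 1132 to 1458 CPM in wildtype, 1068 to 1473 in Myc and 952 to 1408 in Grhl2KO_Myc. The 8 liver markers summed to 474 CPM in wildtype 3 and to 64 to 156 CPM in the other 11 libraries.

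**Figure D4:**
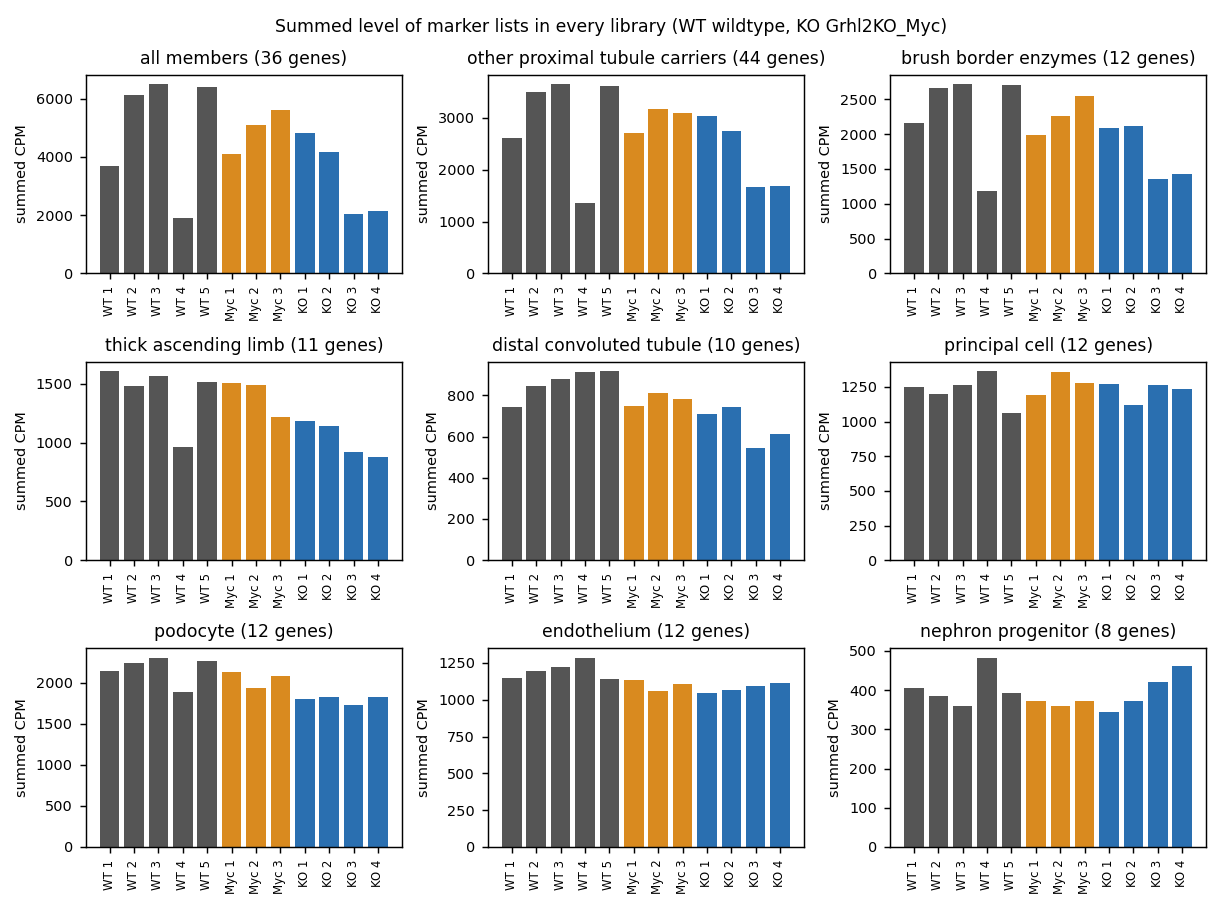
Bars give the summed CPM of the members, of other proximal tubule lists and of marker lists of other kidney cells in each of the 12 libraries, numbered by replicate (WT for wildtype, KO for Grhl2KO_Myc). The members and the thick ascending limb list are lowest in wildtype 4, Grhl2KO_Myc 3 and Grhl2KO_Myc 4, where the nephron progenitor list is high.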

How the data were processed

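Polyadenylated RNA was sequenced with a TruSeq kit, which does not mark strand, per the labels' protocols. Reads were aligned with HISAT2 to mm10, per the submitters' processing notes. The counting program and its annotation are not given in the sources here. Gene counts were deposited by the authors as whole numbers, unnormalized, beside the exon width of each gene. Columns were assigned by the identifier in the sample titles, and 0 columns belonged to no sample of the series.

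Genotype labels gave the groups. No library was a copy of another, since even the closest pair of a group, Grhl2KO_Myc 3 and 4, had a chi-square 13.5 times its degrees of freedom. Genes were tested by the quasi-likelihood F test of edgeR 4.0.16 (R 4.3.3) after TMM scaling and its default expression filter, on all 12 libraries with group as the only term, and Benjamini-Hochberg adjustment over 23742 genes with a threshold of 0.05. The test was also run on simulated counts with known changes. Figures and values per library use CPM, and levels of different genes were divided by exon width. Coordinates are from GENCODE M21, which may differ from the annotation used for counting. The members, the other gene lists and the tests were chosen with earlier results of these data known. All members were named, and of the other lists at most 4 genes per comparison, those with the smallest adjusted p, with Grhl2, Myc, Ddx3y and Xist always. Umod, Six2, Cited1, Meox1 and Havcr1 were named after their values were seen. Alternatives were RLE and upper-quartile scaling, 2 other filters, DESeq2 1.42.0, limma-voom (limma 3.58.1), a fit of only the groups compared, the replicate number as a block, a term for Ddx3y above 10 CPM, removal of 3 genes of ribosomal RNA reads, the short HNF1 motif and each library left out. Leaving out the 3 low libraries together was added after seeing the data.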

Additional observations from a re-analysis of the deposited data

Results flagged for a closer look

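A library was taken to lie apart when its gap to the nearest other library of its group, divided by the range of the group, exceeded the critical value of Dixon for a group of that size. Of 76 groups of values examined 2 had such a library, and chance gives about 5% of groups. Slc7a13, the late-segment amino acid carrier gene, lay at 3.73 CPM in wildtype 4, with a gap of 0.786 of the range. Dpys, which did not pass the filter on low counts, lay at 0.288 CPM (20 counts) in wildtype 3, with a gap of 0.866 of the range. Wildtype 3 was also the library in which the 8 liver markers summed highest, to 474 CPM against 64 to 156 CPM elsewhere, and their part in the level of Dpys was not tested.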

How the results depend on the processing

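For Myc against wildtype the 1 gene called became 43 with DESeq2 and 0 with limma-voom, with only the groups compared, with the replicate block and with the Ddx3y term, and 0 to 6 without single libraries. For Grhl2KO_Myc against wildtype the 1584 genes called became 2703 with DESeq2, 995 with only the groups compared, 993 with the replicate block, 998 with the Ddx3y term and 750 to 3778 without single libraries. The 2 members called there became 1 with only the groups compared, with the replicate block and with the Ddx3y term, where Slc9a3 lost its call (adjusted p = 0.063, 0.053 and 0.056), and 1 to 12 without single libraries. For Grhl2KO_Myc against Myc the 200 genes called became 784 with DESeq2, 88 with the replicate block, 318 without the 3 low libraries and 70 to 703 without single libraries, and the 0 members became 1 with DESeq2. The causes of these shifts were not tested. Of 805 values of members (35 members under 23 alternatives) against wildtype in Grhl2KO_Myc, 10 lost a call, 12 gained one and 0 changed the sign of a call. The median over the members kept its sign in both Grhl2KO_Myc comparisons under every alternative run, from -0.74 to -0.32 against wildtype and from -0.77 to -0.11 against Myc. Same-numbered libraries did not deviate together (correlations of -0.11 to 0.23 over 10 pairs, with 3 of 11 libraries closest to their own number), so the replicate block pairs libraries that share only a number. In Myc against wildtype that median ran from -0.20 to 0.15, and was -0.02 with the replicate block, under which Ppargc1a lost its call (adjusted p = 0.082). Dpys, with 2 to 20 counts per library, did not pass the filter on low counts.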

Other observations

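Genes of vitamin D metabolism, chosen after their values were seen, also varied within groups, and only in part in the order of the members. Cyp24a1, which inactivates vitamin D, was at 8.92, 68.8, 75.7, 39.6 and 110.3 CPM in wildtype 1 to 5, at 14.7, 13.2 and 39.1 CPM in Myc 1 to 3 and at 114, 85.8, 7.65 and 5.96 CPM in Grhl2KO_Myc 1 to 4. Wildtype 4 was thus not its lowest wildtype library, while Grhl2KO_Myc 3 and 4 were the lowest of all. Cyp27b1, which makes the active hormone, was at 50.6, 45.1, 82.9, 81.4 and 25.2 CPM in wildtype 1 to 5, at 16.8, 39 and 106.6 CPM in Myc 1 to 3 and at 36.5, 85.3, 26.4 and 31.5 CPM in Grhl2KO_Myc 1 to 4. Apart from vitamin D, Kap, the androgen-regulated kidney protein gene, had the library order of most members. It was at 54.9 CPM in wildtype 4 and at 408 to 563 CPM in the other wildtype libraries, and at 277, 259, 89.1 and 73.7 CPM in Grhl2KO_Myc 1 to 4.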
